A study of Mus musculus with 20 samples.

Results

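The genes described here make cholesterol and fatty acids. They are 31 of the 23090 genes counted in each library, chosen by gene symbol and matched to the Entrez gene IDs in the deposited files. All 31 had a match. By role they are 5 regulators, 7 enzymes that lead from acetyl-CoA to farnesyl diphosphate, 11 enzymes that lead from there through squalene to cholesterol, 1 carrier of sterols, 3 enzymes that make fatty acids and 4 desaturases that put double bonds into them.

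Poly-A RNA was sequenced from mMDSC and gMDSC, the monocytic and the granulocytic kind of myeloid-derived suppressor cell, a class of immature myeloid cells that gathers in tumours. They were sorted from subcutaneous tumours of female SCID.beige mice of 6 to 8 weeks, a strain that lacks T, B and functional NK cells, so every group came from a host without these cells. The tumours grew from injected cells of MDA.MB.231-X1.1, a line of human breast cancer origin, or of CT26, a mouse colon carcinoma line. Once tumours averaged 150 to 200 mm3 the mice were given the vehicle MCT, or 25 mg/kg of GNE-781 by oral gavage, BID for 7 days. GNE-781 blocks the bromodomain of the acetyltransferases CBP and EP300, and is called CBPi below. Both cell types were sorted as CD45+, CD11b+, Ly6C+ and F4/80-; gMDSC carried Ly6G and mMDSC did not. The 4 groups, vehicle mMDSC, CBPi mMDSC, vehicle gMDSC and CBPi gMDSC, had 5 libraries each, numbered 1 to 5 under vehicle and 6 to 10 under CBPi. The labels tie neither tumour line nor mouse to a library, so differences between lines cannot be told apart from differences between libraries, and p-values measure the spread between these libraries, part of which may be technical.

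Cells sense their sterol supply through the SREBP proteins, which the genes Srebf1 and Srebf2 encode. When sterols are scarce, SCAP escorts SREBP from the endoplasmic reticulum to the Golgi, where it is cut and its active part goes to the nucleus to switch on the genes of sterol and fatty acid synthesis. When sterols are plentiful, the INSIG proteins hold SCAP back. In macrophages this pathway and its liver X receptor counterpart are known to be tied to inflammatory activation, and intermediates of sterol synthesis act as ligands of nuclear receptors.

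Libraries held 12.37 to 26.64 M counts (M, mega). Levels are given as CPM, counts per M of library size, scaled by TMM over all 20 libraries. The sum of 10 neutrophil markers was 11590 to 39070 CPM in vehicle gMDSC and 349 to 413 CPM in vehicle mMDSC, and under CBPi it was 9752 to 20210 CPM against 243 to 352 CPM. The sum of 8 monocyte markers was 1692 to 3857 CPM in vehicle gMDSC against 3906 to 5045 CPM in vehicle mMDSC, so gMDSC libraries also held transcripts of this list. These markers went both ways: 5 were lower in vehicle gMDSC and 2 higher at an adjusted p under 0.05 by edgeR's quasi-likelihood test. Their median log2 fold change was -2.89, so the sum does not stand for each marker. Macrophage markers were abundant although the gate took F4/80- cells, with a sum over 8 genes of 12820 to 21270 CPM in vehicle gMDSC and 8553 to 10740 CPM in vehicle mMDSC, and of 6584 to 12690 CPM and 6179 to 8255 CPM under CBPi. Adgre1, which encodes F4/80, itself averaged 840 ± 91.3 CPM (SD, n = 5) in vehicle mMDSC and 1028 ± 332 CPM in vehicle gMDSC. Ly6g, the gene of the sorting antigen, was low even in gMDSC, at 0.442 to 9.03 CPM under vehicle and 0.531 to 2.13 CPM under CBPi, against at most 0.404 CPM in mMDSC. Vehicle gMDSC 5 was the one at 0.442 CPM. Vehicle gMDSC 3 stood apart: it had 10409 genes with at least 10 counts against 11190 to 11954 in the other 4, a mean correlation with its group of 0.883 against 0.929 to 0.940, and the lowest value of all 20 libraries for 14 of the 31 members. Lowest values were not counted over all genes, so that count of members cannot be read as particular to them. Calls of members that changed without vehicle gMDSC 3 are given both ways.

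Members differed widely in level. Per kilobase of the deposited gene width, Ebp, the sterol isomerase, had the highest mean in vehicle mMDSC, at 106 CPM per kb, followed by Acly, ATP citrate lyase, at 66.3 CPM per kb and Msmo1, the methylsterol monooxygenase, at 52.5 CPM per kb. Of the 31 members, 17 were above 10 CPM per kb there. At the other end Idi1 (isopentenyl-diphosphate isomerase), Scd1 (stearoyl-CoA desaturase) and Acaca (acetyl-CoA carboxylase) stayed under 1 CPM per kb in all 4 groups. The desaturase pair was split: Scd2 stood at 11.7 CPM per kb in vehicle mMDSC and Scd1 at 0.346 CPM per kb. Fasn, fatty acid synthase, stood at 2.43 CPM per kb in vehicle mMDSC and 3.15 CPM per kb in vehicle gMDSC. The lowest of the 4 group means fell in vehicle gMDSC for 17 members, in CBPi gMDSC for 9, in vehicle mMDSC for 3 and in CBPi mMDSC for 2. The means of vehicle gMDSC include vehicle gMDSC 3. These counts were not made over all genes, so they cannot be read as particular to the members.

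**Figure D1:**
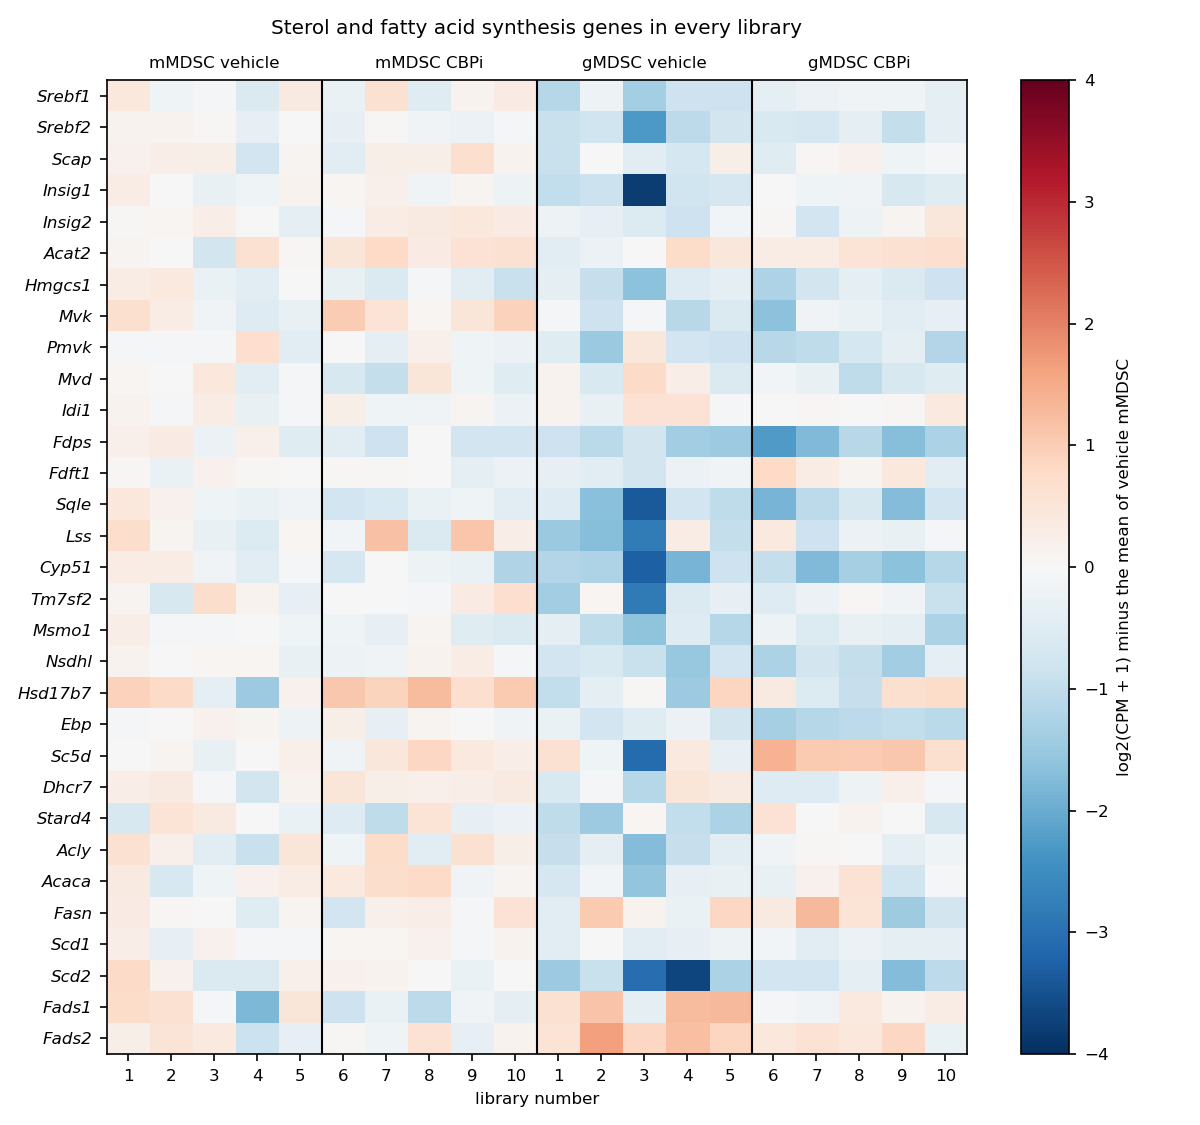
Each row is 1 of the 31 genes and each column 1 of the 20 libraries. Colour shows log2(CPM + 1) minus the mean of the 5 vehicle mMDSC libraries, from -3.78 to 1.65, and vehicle gMDSC 3 is the darkest blue column, with Insig1, Sqle, Cyp51 and Sc5d among its low genes.

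In vehicle-treated mice, gMDSC held less RNA than mMDSC of 6 members, both SREBP genes and 4 sterol enzymes, while most members did not pass the test. Of the 29 members that passed the filter on low counts, 6 were lower in gMDSC at an adjusted p under 0.05 by edgeR's quasi-likelihood test, which is 20.7% of them, against 8.08% of all 11576 genes tested. None was higher (0 of 29, against 13.6% of all genes), although 2 of the other fits placed Fads2 there, and 14 members had an unadjusted p under 0.05 in either direction (48.3%, against 32.7% of all genes). The fold change was negative for 24 of the 29, with a median log2 fold change of -0.72 against -0.056 over all genes tested. Without vehicle gMDSC 3 it was negative for 23, with a median of -0.64 against -0.072. The 6 are Srebf1, Srebf2, and the enzymes Fdps, Cyp51, Msmo1 and Nsdhl. In bulk RNA, fewer cells of a type and less RNA per cell cannot be told apart.

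Among the regulators, Srebf2, the SREBP gene best known for sterol synthesis (chr15:82147269-82205379, GRCm38.p6), stood at 110, 110, 102, 78.0 and 99.5 CPM in vehicle mMDSC 1 to 5. In vehicle gMDSC 1 to 5 it stood at 53.1, 56.2, 19.4, 47.2 and 59.0 CPM. No gMDSC library reached the lowest mMDSC library, and vehicle gMDSC 3 was the lowest. Srebf2 had a log2 fold change of -1.04 (SE 0.25, adjusted p = 0.0103), and -0.86 (adjusted p = 0.000771) without vehicle gMDSC 3. Srebf1, whose product is best known for fatty acid synthesis, stood at 103, 68.2, 73.5, 51.1 and 99.2 CPM in vehicle mMDSC and at 34.2, 67.0, 29.4, 42.2 and 42.7 CPM in vehicle gMDSC. Its groups overlapped, through vehicle gMDSC 2, which lay above vehicle mMDSC 4. The log2 fold change was -0.83 (SE 0.25, adjusted p = 0.0344), and the call held in 11 of 19 other settings, with an adjusted p of up to 0.0929 when it did not; leaving out any 1 of 6 libraries ended it. Srebf1 shares bases with Rai1, so its counts are uncertain where the counting could split overlapping genes. The same holds for Fdft1 with Ctsb, Tm7sf2 with Vps51, and Acaca with Gm11437 and Tada2a.

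Insig1, a brake on SCAP that SREBP itself switches on, was below every mMDSC library in all 5 vehicle gMDSC libraries without passing the test. It stood at 32.0, 25.9, 20.8, 22.9 and 28.1 CPM in vehicle mMDSC and at 12.4, 13.6, 0.934, 14.5 and 15.8 CPM in vehicle gMDSC. The log2 fold change was -1.14 (SE 0.49, adjusted p = 0.126). Without vehicle gMDSC 3 it was -0.86, with an adjusted p of 0.00479. Insig1 was called lower in 3 of 19 other settings. Insig2, the second brake, gave -0.39 (SE 0.23, adjusted p = 0.273), and Scap gave -0.30 (SE 0.27, adjusted p = 0.484), with overlapping groups for both.

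Of the enzymes up to farnesyl diphosphate, Fdps passed the test. Fdps makes farnesyl diphosphate, the branch point to sterols and to prenylated proteins. It stood at 11.8, 12.8, 8.35, 11.6 and 6.89 CPM in vehicle mMDSC and at 5.20, 4.24, 5.70, 3.21 and 3.01 CPM in vehicle gMDSC. All 5 gMDSC libraries were below all 5 mMDSC libraries, and vehicle gMDSC 3 was the highest of them here. On the log2 scale the change was -1.23 (SE 0.32, adjusted p = 0.0147). Hmgcs1, the HMG-CoA synthase at the head of the route, gave -0.72 (SE 0.26, adjusted p = 0.0683), while Acat2 and Mvd had small positive values, 0.16 and 0.11; without vehicle gMDSC 3 Mvd turned to -0.15. Mvk and Pmvk, the kinases between them, gave -0.56 (SE 0.34) and -0.53 (SE 0.35). Idi1 was under the filter on low counts and not tested, and its mean was 0.446 ± 0.225 CPM in vehicle mMDSC and 0.671 ± 0.440 CPM in vehicle gMDSC (SD, n = 5).

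All 11 enzymes from squalene to cholesterol had a negative value in this comparison, with a median log2 fold change of -0.86, and 3 passed the test. Without vehicle gMDSC 3, 9 of the 11 were negative, with a median of -0.64, since Sc5d and Dhcr7 turned positive. Cyp51, the lanosterol demethylase (chr5:4080674-4104697), had the largest change of the 6 genes called. It stood at 52.6, 53.6, 38.9, 32.1 and 41.8 CPM in vehicle mMDSC and at 18.4, 17.6, 3.55, 11.2 and 24.1 CPM in vehicle gMDSC. The groups did not overlap, and vehicle gMDSC 3 was again the lowest. For Cyp51 the log2 fold change was -1.51 (SE 0.39, adjusted p = 0.0135), and -1.28 (adjusted p = 0.00165) without that library.

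Msmo1 and Nsdhl act after Cyp51, on the methyl groups at carbon 4 of the sterol, and showed the same separation. Msmo1 stood at 56.0, 44.1, 44.2, 46.9 and 40.3 CPM in vehicle mMDSC and at 36.0, 22.4, 14.5, 31.8 and 20.5 CPM in vehicle gMDSC. Its log2 fold change was -0.86 (SE 0.24, adjusted p = 0.0202). Nsdhl (chrX:72918521-72958528) stood at 33.7, 29.8, 32.2, 32.3 and 24.2 CPM in vehicle mMDSC and at 17.3, 19.6, 15.8, 9.89 and 17.6 CPM in vehicle gMDSC. For Nsdhl the value was -0.89 (SE 0.22, adjusted p = 0.0113). Neither gene had a gMDSC library as high as the lowest mMDSC library, and for Nsdhl vehicle gMDSC 3 lay inside the range of its group.

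Sqle, the squalene epoxidase that is a rate-limiting step of this segment, was likewise below every mMDSC library. It stood at 30.5, 25.5, 19.9, 18.4 and 20.1 CPM in vehicle mMDSC and at 15.3, 6.32, 1.31, 12.8 and 10.7 CPM in vehicle gMDSC. The log2 fold change of -1.27 (SE 0.46) had an adjusted p of 0.0718, and without vehicle gMDSC 3 it was -1.0 with an adjusted p of 0.0166. Sqle was called lower in 5 of 19 other settings. Ebp gave -0.46 (SE 0.16, adjusted p = 0.0557) with no overlap between its groups. It was called lower in 4 of 19 other settings: without vehicle gMDSC 4 (-0.53, adjusted p = 0.0478), by DESeq2, by limma-voom and in 1 fit of all 20 libraries. Lss, which closes the sterol rings, gave -1.22 (SE 0.73), Tm7sf2, a sterol reductase, -0.89 (SE 0.68) and Hsd17b7, a ketosteroid reductase of the route, -0.51 (SE 1.09). Without vehicle gMDSC 3, Lss gave -0.93 and Tm7sf2 -0.60, and without vehicle gMDSC 4 Lss was called lower (-2.12, adjusted p = 0.0484). Sc5d and Dhcr7, which carry out the last steps, gave -0.10 and -0.08, and 0.21 (SE 0.26) and 0.09 (SE 0.29) without vehicle gMDSC 3. Stard4, which carries sterols between membranes, gave -1.03 (SE 0.45, adjusted p = 0.132), and -1.51 (adjusted p = 0.0105) without vehicle gMDSC 3, the highest library of its group for this gene.

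The fatty acid genes went in both directions and none passed the test. Acly, which cuts citrate to cytosolic acetyl-CoA, gave -0.86 (SE 0.31, adjusted p = 0.0696), Acaca -0.88 (SE 0.74) and Fasn 0.43 (SE 0.32). Without vehicle mMDSC 4 Acly was called lower (-1.03, adjusted p = 0.0269), and without vehicle gMDSC 3 Acaca gave -0.58. Acly was called lower in 4 of 19 other settings in all, also by DESeq2, in 1 fit of all 20 libraries and with the library number as a block. Acaca was at 0 counts in vehicle gMDSC 3, where 3 counts would be 0.280 CPM. Scd2 had the largest negative value of all members, -2.06 (SE 0.79, adjusted p = 0.0875), at 20.8, 13.4, 7.67, 7.60 and 13.7 CPM in vehicle mMDSC and 3.73, 5.91, 0.560, 0 and 4.38 CPM in vehicle gMDSC. Its groups did not overlap, and the 0 of vehicle gMDSC 4 allows up to 0.260 CPM. Scd2 was called lower in 4 of 19 other settings: DESeq2, limma-voom, 1 fit of all 20 libraries and the library number as a block. Fads1 and Fads2, the delta-5 and delta-6 desaturases of polyunsaturated fatty acids, had positive values of 0.73 (SE 0.43) and 1.49 (SE 0.60, adjusted p = 0.0995). Fads2 was low throughout, at 1.57, 2.15, 1.89, 0.213 and 0.735 CPM in vehicle mMDSC against 2.16, 5.82, 2.89, 3.99 and 2.92 CPM in vehicle gMDSC, and its groups did not overlap. In all, 10 of the 29 members tested had groups without overlap under vehicle (34.5%, against 20.2% of all genes tested).

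**Figure D2:**
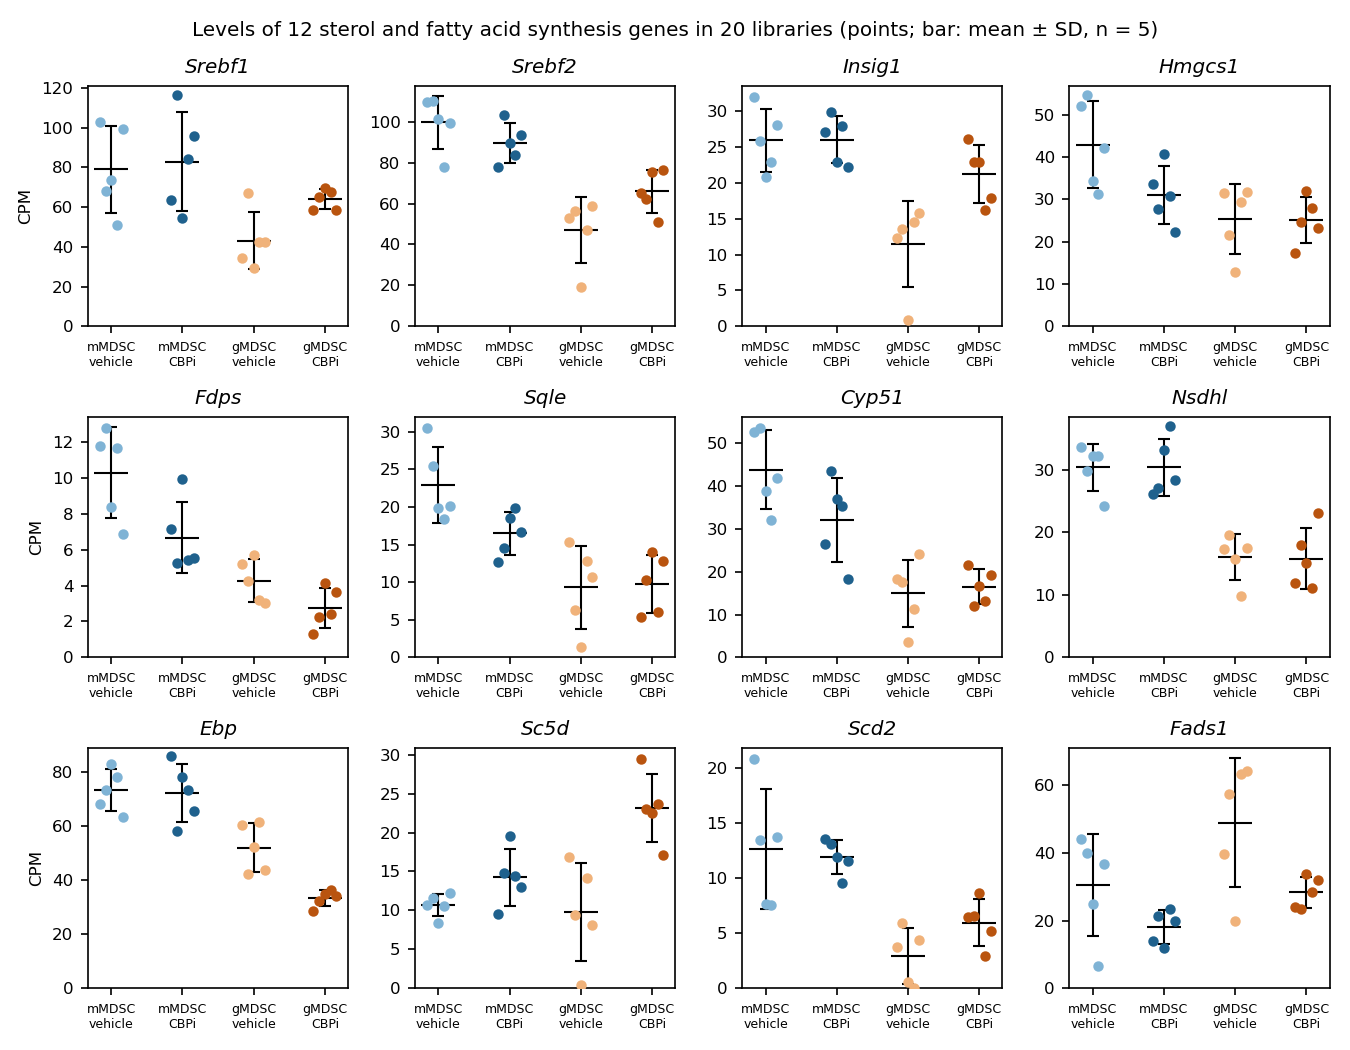
Points are CPM in each of 5 libraries for 12 genes in the 4 groups, with bars for the mean ± SD, and each panel has its own axis from 0. Vehicle gMDSC lies below vehicle mMDSC without overlap for Srebf2, Insig1, Fdps, Sqle, Cyp51, Nsdhl, Ebp and Scd2, and CBPi gMDSC lies below vehicle gMDSC for Ebp.

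Leaving out vehicle gMDSC 3 raised the number of members called lower under vehicle from 6 to 10 (34.5%), adding Insig1, Pmvk, Sqle and Stard4, while lower calls over all genes rose from 935 to 1521 (12.8%). Without it Pmvk gave -0.92 (adjusted p = 0.0268), Fdps -1.37 (adjusted p = 0.00587), Nsdhl -0.90 (adjusted p = 0.0089), Srebf1 -0.74 (adjusted p = 0.0412) and Msmo1 -0.72 (adjusted p = 0.02). Other cells and states also differed between these groups. The sum of 8 proliferation genes was 263 to 363 CPM in vehicle gMDSC against 123 to 243 CPM in vehicle mMDSC, with 5 of the 8 higher at an adjusted p under 0.05. The sum of 6 epithelial markers was 23.9 to 54.3 CPM against 5.21 to 14.2 CPM, and that of 7 dendritic cell markers 6.91 to 21.5 CPM against 30.3 to 50.9 CPM. By the same test, 1 of 4 epithelial markers tested was higher and 0 lower. Of 6 dendritic cell markers tested, 2 were lower and 0 higher, with 3 positive and 3 negative values. Macrophage sums did not overlap either, with 3 of 8 markers higher and 1 lower. These sums do not stand for each marker. Their part in the result was not tested. Markers of adipocytes, cells rich in these enzymes, summed to at most 3.46 CPM over 7 genes in any library, and Lep was at 0 in all 20. Under vehicle the adipocyte sum was 1.64 to 3.46 CPM in gMDSC against 0 to 1.41 CPM in mMDSC, and its part was not tested either.

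Under CBPi the 2 cell types could be compared again in 10 other libraries. Of 29 members tested, 8 were lower in gMDSC (27.6%, against 19.1% of all 11895 genes tested) and 2 were higher (6.9%, against 20.1%). The median log2 fold change was -0.31 against -0.050 over all genes. Srebf2, Fdps, Cyp51 and Nsdhl were called lower in both comparisons, 4 of the 6 under vehicle (66.7%) and 4 of the 8 under CBPi (50.0%). Calls shared by both comparisons were not counted over all genes, so these shares cannot be read as particular to the members. Mvk, Pmvk, Ebp and Scd2 were called lower under CBPi, and Sc5d and Fads1 higher. Whether the cell types differed more under vehicle than under CBPi is the same test as whether they responded differently to CBPi, given below, and no member passed it.

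Srebf2 stood at 78.0, 103, 89.7, 83.7 and 93.4 CPM in CBPi mMDSC 6 to 10 and at 65.1, 62.1, 75.6, 51.1 and 76.5 CPM in CBPi gMDSC 6 to 10. The groups came close without overlap, and the log2 fold change was -0.38 (SE 0.14, adjusted p = 0.0458). This call was lost in 11 of 18 other settings, with an adjusted p of up to 0.119. The other regulators gave -0.31 for Srebf1 (SE 0.18, adjusted p = 0.205), -0.24 for Scap (SE 0.19), -0.23 for Insig1 (SE 0.17) and -0.26 for Insig2 (SE 0.22), all with overlapping groups.

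The early enzymes included 3 that were lower in CBPi gMDSC. Mvk, mevalonate kinase, stood at 22.8, 16.3, 11.4, 15.6 and 21.2 CPM in CBPi mMDSC and at 2.78, 9.71, 8.69, 7.59 and 8.40 CPM in CBPi gMDSC, a log2 fold change of -1.17 (SE 0.31, adjusted p = 0.00858). Pmvk, the kinase that follows it, gave -0.72 (SE 0.20, adjusted p = 0.0117) from 25.5 ± 4.27 to 14.9 ± 4.003 CPM (SD, n = 5). Fdps stood at 7.16, 5.25, 9.95, 5.45 and 5.55 CPM in CBPi mMDSC and at 1.29, 2.27, 4.14, 2.41 and 3.62 CPM in CBPi gMDSC. Mvk and Fdps did not overlap between the cell types, and Pmvk overlapped by CBPi gMDSC 9. The Fdps log2 fold change was -1.21 (SE 0.36, adjusted p = 0.0160), beside -1.23 under vehicle.

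Ebp, which moves the double bond in the sterol ring, had the smallest adjusted p of all members in any comparison. It stood at 85.9, 58.2, 77.9, 73.1 and 65.4 CPM in CBPi mMDSC and at 28.7, 32.2, 34.9, 36.4 and 34.0 CPM in CBPi gMDSC (chrX:8185329-8193512). The groups were far apart, with a log2 fold change of -1.06 (SE 0.14, adjusted p = 5.5e-05). Sc5d, the sterol-C5-desaturase that acts on the product of Ebp, went the other way, at 9.48, 14.9, 19.6, 14.4 and 13.01 CPM in CBPi mMDSC against 29.4, 23.1, 22.5, 23.6 and 17.1 CPM in CBPi gMDSC. Its log2 fold change was 0.76 (SE 0.21, adjusted p = 0.0108), with only CBPi gMDSC 10 inside the range of mMDSC. Consecutive steps of the route had opposite signs between the cell types under CBPi.

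Cyp51 stood at 26.5, 43.5, 37.1, 35.3 and 18.2 CPM in CBPi mMDSC and at 21.6, 12.1, 16.6, 13.1 and 19.2 CPM in CBPi gMDSC, with a log2 fold change of -0.90 (SE 0.24, adjusted p = 0.00983). CBPi mMDSC 10 lay within the range of gMDSC for this gene. Nsdhl gave -0.88 (SE 0.21, adjusted p = 0.00551) without overlap, beside -0.89 under vehicle. Msmo1, called under vehicle, averaged 38.2 ± 7.52 CPM in CBPi mMDSC and 32.4 ± 8.21 CPM in CBPi gMDSC (SD, n = 5) and did not pass the test. Sqle gave -0.69 (SE 0.27, adjusted p = 0.0609), Lss -0.70 (SE 0.39), Tm7sf2 -0.54 (SE 0.28) and Hsd17b7 -1.0 (SE 0.50). Sqle was called lower without CBPi gMDSC 8 or 10 (adjusted p = 0.0287 and 0.0449), and Dhcr7 without CBPi gMDSC 9 (-0.59, adjusted p = 0.019).

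The desaturases were again split. Scd2 stood at 13.5, 13.1, 11.9, 9.55 and 11.6 CPM in CBPi mMDSC and at 6.46, 6.58, 8.69, 2.89 and 5.21 CPM in CBPi gMDSC, a log2 fold change of -0.94 (SE 0.27, adjusted p = 0.0148) without overlap. Fads1 stood at 14.0, 21.3, 12, 23.5 and 19.8 CPM in CBPi mMDSC and at 24.2, 23.5, 33.9, 28.3 and 31.9 CPM in CBPi gMDSC, a log2 fold change of 0.71 (SE 0.20, adjusted p = 0.0142). The Fads1 groups met at 23.5 CPM. Fads2 gave 0.64 (SE 0.48) and Fasn 0.27 (SE 0.44). With 1 spread estimated over all 20 libraries, the 2 members called higher and 3 of the 8 called lower (Srebf2, Pmvk and Scd2) no longer passed. In all, 7 of the 29 members tested had groups without overlap under CBPi (24.1%, against 30.2% of all genes tested), a share under that of all genes. Proliferation genes summed to 126 to 200 CPM in CBPi gMDSC against 77.7 to 123 CPM in CBPi mMDSC, with 7 of 8 higher, and their part in the result was not tested.

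**Figure D3:**
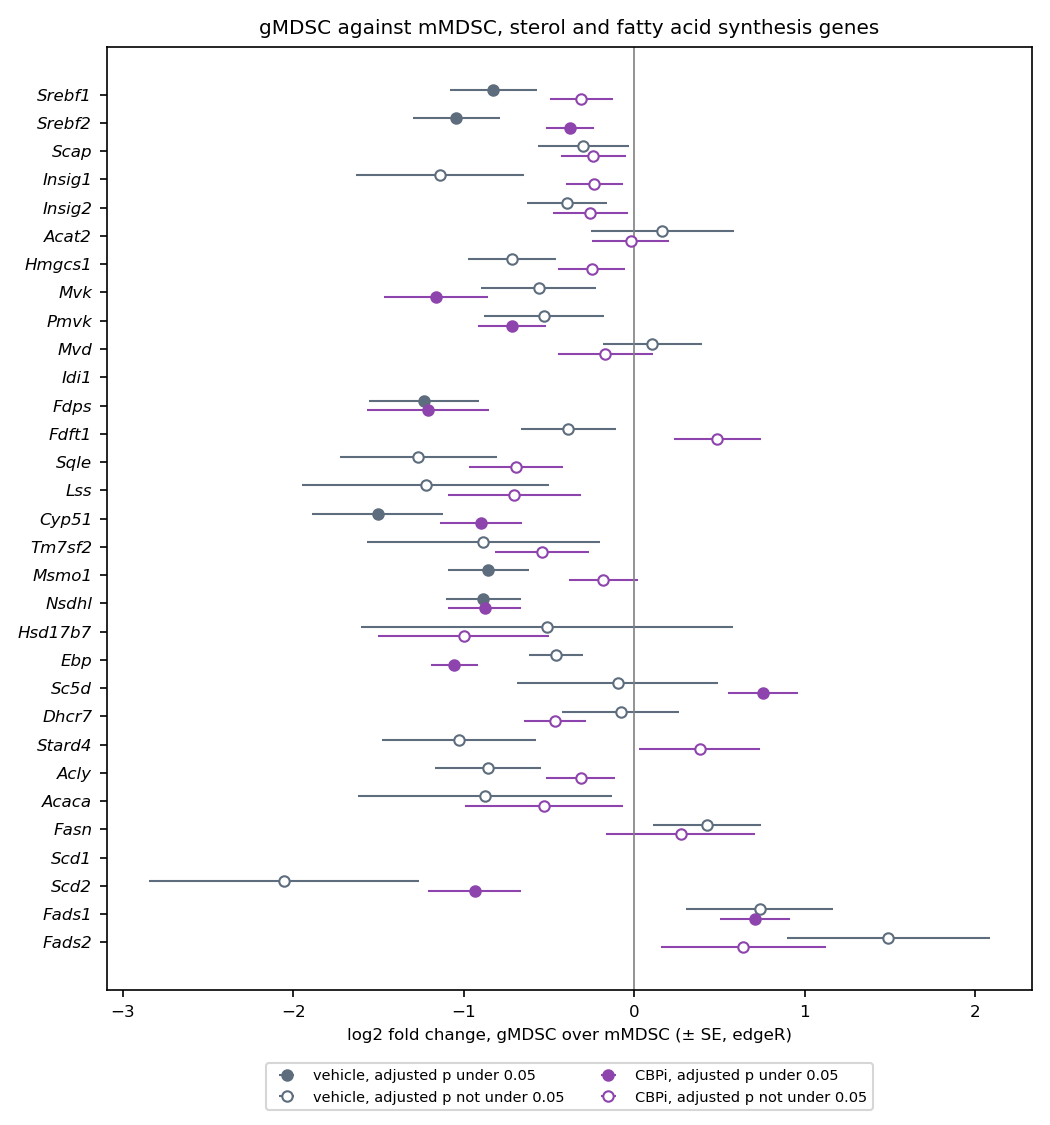
Points are log2 fold changes of gMDSC over mMDSC with bars of 1 SE from edgeR, filled where the adjusted p was under 0.05, for 29 genes under vehicle (grey) and CBPi (purple). Most points lie left of 0, Fdps and Nsdhl nearly coincide between treatments, and Sc5d and Fads1 lie right of 0 under CBPi.

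SREBP binds promoters at sterol regulatory elements, usually beside sites of NF-Y and Sp1, so the promoter letters of the members lower in gMDSC in both treatments are shown, with that of Ebp. RefSeq (GRCm38.p6) starts were at hand for 24 of the 31 members, 32 starts in all, and Fdps is not among them. Each sequence is the 250 bases before the start, written in the direction of the gene, with capitals for CCAAT (the NF-Y box) and GGGCGG (the Sp1 box) on either strand. Srebf2 lies at chr15:82147019-82147268 on the plus strand, Cyp51 at chr5:4104698-4104947 on the minus strand, Nsdhl at chrX:72918271-72918520 on the plus strand and Ebp at chrX:8193513-8193762 on the minus strand.
Srebf2: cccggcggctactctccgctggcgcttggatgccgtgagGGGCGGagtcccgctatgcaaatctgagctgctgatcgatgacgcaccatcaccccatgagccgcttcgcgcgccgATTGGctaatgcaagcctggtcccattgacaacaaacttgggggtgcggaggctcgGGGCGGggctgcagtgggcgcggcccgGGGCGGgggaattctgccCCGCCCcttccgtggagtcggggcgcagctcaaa
Cyp51: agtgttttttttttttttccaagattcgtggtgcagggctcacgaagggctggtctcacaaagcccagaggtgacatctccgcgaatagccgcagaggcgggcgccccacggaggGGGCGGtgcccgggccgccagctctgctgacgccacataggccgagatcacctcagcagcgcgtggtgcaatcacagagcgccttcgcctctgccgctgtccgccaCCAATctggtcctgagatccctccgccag
Nsdhl: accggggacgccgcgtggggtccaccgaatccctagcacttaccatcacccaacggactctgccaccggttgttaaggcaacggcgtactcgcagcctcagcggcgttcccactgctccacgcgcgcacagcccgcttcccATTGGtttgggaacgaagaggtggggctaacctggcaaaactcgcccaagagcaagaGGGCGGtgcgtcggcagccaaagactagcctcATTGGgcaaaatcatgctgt
Ebp: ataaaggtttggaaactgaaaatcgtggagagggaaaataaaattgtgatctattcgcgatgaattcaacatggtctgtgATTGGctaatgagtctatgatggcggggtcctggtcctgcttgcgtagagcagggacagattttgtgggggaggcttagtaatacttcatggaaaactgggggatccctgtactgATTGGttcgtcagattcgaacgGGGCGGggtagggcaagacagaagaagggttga

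All 4 hold at least 1 of each box. The CCAAT letters were in 20 of the 32 member promoters (62.5%), against 33.9% of 32851 promoters of the same length, and GGGCGG in 24 of 32 (75.0%), against 32.7%. The element core TCACNCCAC, searched on both strands, was in 1 member promoter (3.1%), that of Hmgcs1, against 1.05% of all. Only this exact string was searched, so elements with other letters were not counted, and promoters without it may still hold one. The match in Hmgcs1 is shown in capitals with its surroundings, chr13:119690194-119690242 on the plus strand.
Hmgcs1: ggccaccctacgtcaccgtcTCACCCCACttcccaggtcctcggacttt
These matches describe letters only. Both boxes were also in promoters of members that passed the test in neither treatment, such as Mvd and Dhcr7, and Hmgcs1 did not pass the test in either treatment.

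CBPi against vehicle in mMDSC gave no call among the members. None of 30 tested was higher or lower at an adjusted p under 0.05 by edgeR, against 3.02% and 5.54% of all 11912 genes, and DESeq2 and limma-voom also called 0. An unadjusted p under 0.05 was found for 4, Hmgcs1, Mvk, Fdps and Sqle (13.3%, against 22.4% of all genes). The median log2 fold change was -0.01 against 0.008 over all genes, with 14 values positive and 16 negative, and no member had groups without overlap, against 9.8% of all genes.

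The 4 with an unadjusted p under 0.05 did not share a direction. Hmgcs1 stood at 52.0, 54.7, 34.4, 31.3 and 42.2 CPM in vehicle mMDSC and at 33.6, 27.7, 40.7, 30.9 and 22.4 CPM in CBPi mMDSC, with a log2 fold change of -0.49 (SE 0.19, adjusted p = 0.153). Sqle gave -0.49 (SE 0.18, adjusted p = 0.128) and Fdps -0.64 (SE 0.25, adjusted p = 0.145). Mvk gave 0.62 (SE 0.26, adjusted p = 0.185). The ranges overlapped for all 4. Regulators were at 0.05 for Srebf1 (SE 0.23), -0.17 for Srebf2 (SE 0.12), 0.15 for Scap (SE 0.22), -0.02 for Insig1 (SE 0.16) and 0.26 for Insig2 (SE 0.17), with adjusted p of at least 0.393.

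Fads1 depended on 1 library here. It stood at 44.0, 39.9, 24.9, 6.64 and 36.8 CPM in vehicle mMDSC and at 14.0, 21.3, 12, 23.5 and 19.8 CPM in CBPi mMDSC. Vehicle mMDSC 4 lay below all CBPi libraries and the other 4 spanned 24.9 to 44.0 CPM, above them. Its log2 fold change was -0.76 (SE 0.39, adjusted p = 0.272), and without vehicle mMDSC 4 it was -1.02 with an adjusted p of 0.0164. That library was the lowest of its group for 17 of the 31 members, a count not made over all genes. Hsd17b7 was at 0 counts there, which allows up to 0.159 CPM.

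In gMDSC, Ebp fell under CBPi and no member rose, by edgeR over 29 members tested (3.4% lower, against 5.52% of all 11694 genes, and 0 higher, against 4.18%). Ebp stood at 60.2, 42.1, 52.1, 61.6 and 43.8 CPM in vehicle gMDSC and at 28.7, 32.2, 34.9, 36.4 and 34.0 CPM in CBPi gMDSC. Every CBPi library was below every vehicle library. Ebp had a log2 fold change of -0.63 (SE 0.16, adjusted p = 0.0314), and the call held in 11 of 18 other settings, with an adjusted p of up to 0.0805 when it did not; without vehicle gMDSC 3 it was 0.0273. In mMDSC Ebp gave -0.04 (SE 0.13), and the difference between both responses was -0.64 (SE 0.20, adjusted p = 0.190).

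No other member passed the test, and signs were mixed. The median log2 fold change was 0.39 against 0.0031 over all genes, with 19 values positive and 10 negative, and 0.19 against 0.0067, with 18 and 11, without vehicle gMDSC 3. Of the 6 enzymes tested up to farnesyl diphosphate 4 were negative (median -0.18), and of the 3 desaturases 2 (median -0.78). An unadjusted p under 0.05 was found for 7 members (24.1%, against 25.9% of all genes), and 3 had groups without overlap (10.3%, against 12.1%), both shares near those of all genes. Sc5d stood at 16.9, 9.40, 0.373, 14.2 and 8.18 CPM in vehicle gMDSC and at 29.4, 23.1, 22.5, 23.6 and 17.1 CPM in CBPi gMDSC. All CBPi libraries were above all vehicle libraries, with vehicle gMDSC 1 and CBPi gMDSC 10 nearly touching. Its log2 fold change was 1.26 (SE 0.57, adjusted p = 0.178), and 0.95 (adjusted p = 0.0287) without vehicle gMDSC 3.

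Insig1 was the third member without overlap, at 26.1, 22.9, 22.9, 16.2 and 17.9 CPM in CBPi gMDSC beside 0.934 to 15.8 CPM in vehicle gMDSC. Its log2 fold change was 0.90 (SE 0.49, adjusted p = 0.267), and 0.60 (adjusted p = 0.0726) without vehicle gMDSC 3. All 5 regulators had positive values, 0.58 for Srebf1 (SE 0.22, adjusted p = 0.116), 0.51 for Srebf2 (SE 0.26, adjusted p = 0.243; 0.30 without vehicle gMDSC 3), 0.22 for Scap (SE 0.25) and 0.40 for Insig2 (SE 0.28). Without vehicle gMDSC 2, the highest library of its group for Srebf1, that gene was called higher (0.81, adjusted p = 0.0203). The cell-type comparison under vehicle and this one share the vehicle gMDSC libraries, so a low library there moves both.

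Stard4 stood at 2.85, 1.83, 7.10, 2.86 and 2.17 CPM in vehicle gMDSC and at 10.6, 6.74, 7.43, 6.68 and 3.96 CPM in CBPi gMDSC. Vehicle gMDSC 3 alone lay among the CBPi libraries. Its log2 fold change was 1.09 (SE 0.45, adjusted p = 0.143), and 1.55 (adjusted p = 0.0175) without it. Fdft1, squalene synthase, which shares bases with Ctsb, gave 0.75 (SE 0.32, adjusted p = 0.155), and Acly 0.68 (SE 0.23, adjusted p = 0.0838). Fdft1 was called higher when all 20 libraries were fitted together (adjusted p = 0.0494), and Acly by DESeq2 (adjusted p = 0.0289).

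Fads1 pointed down under CBPi in gMDSC as in mMDSC. It stood at 39.7, 57.6, 19.9, 63.4 and 64.4 CPM in vehicle gMDSC and at 24.2, 23.5, 33.9, 28.3 and 31.9 CPM in CBPi gMDSC. Vehicle gMDSC 3 was the only vehicle library not above all CBPi libraries. The log2 fold change was -0.78 (SE 0.29, adjusted p = 0.105), and -0.98 (adjusted p = 0.00673) without it. Leaving out vehicle gMDSC 3 took the gMDSC calls from 0 higher and 1 lower to 2 higher (Sc5d and Stard4) and 2 lower (Ebp and Fads1). That is 6.9% in each direction, against 5.5% higher and 6.15% lower of all genes, shares near each other. Fads2 gave -0.85 (SE 0.49), Scd2 1.03 (SE 0.81) and Fasn -0.07 (SE 0.49), all with overlapping groups.

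**Figure D4:**
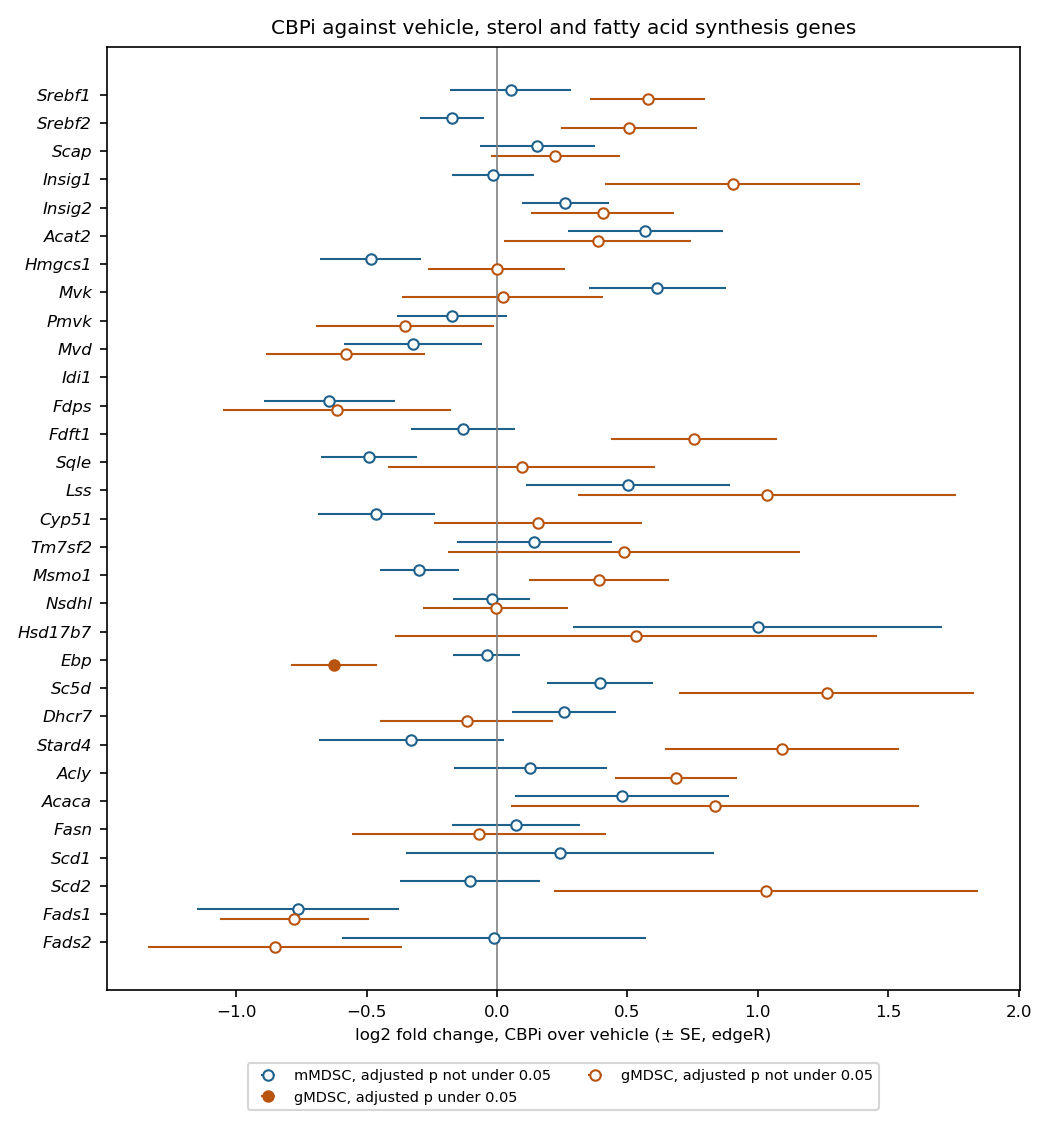
Points are log2 fold changes of CBPi over vehicle with bars of 1 SE from edgeR, in mMDSC (blue, 30 genes) and gMDSC (orange, 29 genes), filled where the adjusted p was under 0.05. Ebp in gMDSC is the 1 filled point, and 19 of the 29 gMDSC values lie right of 0.

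Whether the cell types responded differently to CBPi was tested as the difference of both log2 fold changes, gMDSC minus mMDSC, over all 20 libraries. No member passed, 0 of 31 in either direction by edgeR, DESeq2 and limma-voom, against 0.497% higher and 0.229% lower of all 12688 genes by edgeR. An unadjusted p under 0.05 was found for 4: Stard4 with a difference of 1.37 (SE 0.58, adjusted p = 0.353), Fdft1 with 0.84 (SE 0.35, adjusted p = 0.345), Srebf2 with 0.63 (SE 0.29, adjusted p = 0.411) and Ebp with the value given above (12.9%, against 11.5% of all genes). Without vehicle gMDSC 3 no member passed either, and Stard4 gave 1.85 (adjusted p = 0.0991). For the other regulators the difference was 0.49 for Srebf1 (SE 0.32), 0.87 for Insig1 (SE 0.53), 0.10 for Insig2 (SE 0.31) and 0.03 for Scap (SE 0.33). The median over the members was 0.10 against -0.041 over all genes. Marker sums moved with CBPi as well. Proliferation genes summed to 123 to 243 CPM in vehicle and 77.7 to 123 CPM in CBPi mMDSC, with 4 of 8 lower, and to 263 to 363 CPM in vehicle and 126 to 200 CPM in CBPi gMDSC, with 3 of 8 lower. The neutrophil marker sum had a median of 21270 CPM in vehicle and 10930 CPM in CBPi gMDSC, and the epithelial sum went from 23.9 to 54.3 CPM to 6.32 to 11.6 CPM. In gMDSC 3 of 10 neutrophil markers and 2 of 4 epithelial markers tested were lower, and 0 of either list were higher. Their part in the responses was not tested.

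Other genes of sterol and fatty acid handling were read from a list of 41. Between the cell types under vehicle, 3 of the 38 tested were higher in gMDSC (7.9%, against 13.6% of all genes) and 6 lower (15.8%, against 8.08%), among them Abca1, the cholesterol exporter (log2 fold change 1.39, SE 0.31, adjusted p = 0.00589), and Mylip, a ligase for lipoprotein receptors (0.66, SE 0.15, adjusted p = 0.00734), which were higher. Nr1h3, the gene of liver X receptor alpha, was lower (-2.39, SE 0.17, adjusted p = 9.03e-07), as was Npc2, which carries cholesterol in lysosomes (-0.97, SE 0.17, adjusted p = 0.000974). Under CBPi, 10 of 40 were higher (25.0%, against 20.1%) and 11 lower (27.5%, against 19.1%), with Mid1ip1, a partner of acetyl-CoA carboxylase, at 1.52 (SE 0.19, adjusted p = 3.84e-05), Mylip at 1.08 (SE 0.15, adjusted p = 0.000109) and Npc2 at -0.97 (SE 0.14, adjusted p = 0.000116). Of the liver X receptor targets on the list, Abca1 and Mylip were higher in gMDSC in both treatments, and Lpcat3, a phospholipid acyltransferase, was lower in both (-0.78, SE 0.17, adjusted p = 0.00456 under vehicle and -0.56, SE 0.13, adjusted p = 0.00414 under CBPi). Abcg1 gave 0.04 (SE 0.16) under vehicle and was higher under CBPi (0.54, SE 0.13, adjusted p = 0.00634). Nr1h3 was lower in gMDSC under CBPi as well, also in 18 of 18 other settings, where it gave -1.13 to -0.90.

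CBPi against vehicle gave 1 of 40 list genes higher (2.5%, against 3.02% of all genes) and 3 lower (7.5%, against 5.54%) in mMDSC, and 3 higher (7.5%, against 4.18%) and 2 lower (5.0%, against 5.52%) in gMDSC. In mMDSC Abca1 rose by 0.80 (SE 0.19, adjusted p = 0.0215, held in 15 of 17 other settings), and Abcg1, the other sterol exporter, fell by 0.69 (SE 0.12, adjusted p = 0.00398). Nr1h3 stood at 225, 157, 127, 148 and 143 CPM in vehicle mMDSC and at 97.0, 98.5, 90.2, 98.5 and 102 CPM in CBPi mMDSC, and fell by 0.74 (SE 0.14, adjusted p = 0.00684) without overlap. In gMDSC Soat1, which esterifies cholesterol for storage, rose from 245, 256, 196, 235 and 292 CPM to 565, 486, 367, 386 and 318 CPM, a log2 fold change of 0.81 (SE 0.18, adjusted p = 0.0152) without overlap. Osbp, an oxysterol-binding lipid carrier, rose by 0.78 (SE 0.20, adjusted p = 0.0315), a call that held in 11 of 18 other settings. Elovl1 and Tecr, which lengthen very long fatty acids, fell by 0.65 (SE 0.13, adjusted p = 0.00981) and 0.71 (SE 0.15, adjusted p = 0.0107). The CBPi responses of Soat1 and Nr1h3 differed between the cell types, 2 of 40 list genes tested for this. Both differences were positive (5.0%, against 0.497% of all genes), and that of Soat1 passed in 14 of 28 other settings.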

How the data were processed

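Each of the 20 libraries had 1 table by Entrez gene. Its count column, deposited by the authors, holds whole, unnormalized read counts; their RPKM column was not used. Per the submitters' processing notes, reads were aligned with GSNAP to GRCm38; which counter, annotation and strand setting followed is not given in the sources used here, so overlapping genes are uncertain. Of the 23090 IDs, 21647 matched a RefSeq symbol (GRCm38.p6).

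Counts were tested with edgeR 4.0.16 (R 4.3.3) by quasi-likelihood, with TMM scaling. Genes were filtered by filterByExpr over the libraries compared. Its minimum count was set to 10, taken as CPM at the median library size, and its minimum total to 15. A gene had to reach the first in as many libraries as the smallest group compared held. Adjustment was by Benjamini-Hochberg over all genes tested, with a threshold of 0.05. The SE is the log2 fold change divided by the square root of F. Alternatives used DESeq2 1.42.0, limma 3.58.1 (voom), other scalings and filters, a joint fit and left-out libraries. The fit was tested on simulated data. Members and lists were chosen with earlier results of these data known. Each member with an adjusted p under 0.05 and every regulator is given with its values, and other members by values or counts. At most 2 other pathway genes are named per direction, apart from liver X receptor genes and targets. Intervals cover the spread between libraries only; depth was 12.37 to 26.64 M (mega) counts. Floors for a count of 0 are 3 counts per library and cover counting error only.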

Additional observations from a re-analysis of the deposited data

Results flagged for a closer look

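In 124 checks of the 5 libraries of a group for 1 library far from the rest, 6 were found. Chance gives about 1 in 20, so this is about as many as chance gives. Vehicle gMDSC 3 was the low library for Insig1 (0.934 CPM) and the high one for Stard4 (7.10 CPM). Vehicle mMDSC 4 was the low library for Scap (23.3 CPM) and the high one for Pmvk (44.3 CPM). CBPi mMDSC 6 was low for Insig2 (15.5 CPM), and CBPi gMDSC 10 was high for Idi1 (0.869 CPM).

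The response to CBPi differed between the cell types for 2 genes of the wider lists, by edgeR's test of the difference itself. Both differences were positive, 5.0% of the 40 tested, against 0.497% of all genes. For Soat1 the difference, gMDSC minus mMDSC, was 1.03 on the log2 scale (SE 0.24, adjusted p = 0.0427), and it passed in 14 of 28 other settings, with an adjusted p of up to 0.0896. For Nr1h3 it was 1.32 (SE 0.26, adjusted p = 0.0175), and it passed in 28 of 28.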

How the results depend on the processing

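No value changed sign where it was called. Under vehicle, members lower in gMDSC numbered 6, against 11 by DESeq2, 12 with all 20 libraries in 1 fit and 4 to 10 with 1 library left out. Lower calls over all genes numbered 935 of 11576, against 1196 of 11563, 1519 of 12688 and 676 to 1521. For members, 1 was higher by DESeq2 and 1 in the joint fit, against 0. Higher calls over all genes numbered 1873 by DESeq2 and 1851 in the joint fit, against 1579. Under CBPi the joint fit gave 0 higher and 5 lower, against 2 and 8. Over all genes it gave 2015 and 2061 of 12688, against 2396 and 2270 of 11895. CBPi in mMDSC gave 0 to 1 lower with 1 library left out, beside 473 to 695 lower over all genes. CBPi in gMDSC gave 1 higher by DESeq2, 1 in the joint fit and 0 to 2 with 1 library left out. Higher calls over all genes numbered 866, 872 and 229 to 658, against 489 in the main fit. It gave 0 lower without the filter on low counts and 0 to 2 with 1 library left out. Lower calls over all genes numbered 539 and 358 to 736, against 646. Without vehicle gMDSC 3 and 5, a choice made after seeing the data, CBPi in gMDSC gave 1 higher and 2 lower, beside 482 and 592 over all genes. With the library number as a replicate block, 0 members were higher and 7 lower in gMDSC under vehicle, 2 higher and 9 lower under CBPi, and 0 passed in the test of the difference. Over all genes the block gave 1318 higher and 696 lower, 2360 and 2221, and 33 and 19. The library numbers are only shared labels: correlations of deviations within the 10 pairs ran from -0.086 to 0.304, 2 were over 0.1, and 3 correlated best with their own number. The joint fit assumes 1 spread for all groups; the cause of the other shifts was not tested. Cyp51, Fdps, Nsdhl and Srebf2 kept their calls under vehicle in all 19 other settings, Msmo1 in 16 and Srebf1 in 11. Members under 1 CPM were limited by depth.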
